A study of Mus musculus with 16 samples.

Results

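The genes of the NRF2 pathway, of the glutathione and thioredoxin systems and of NADPH supply were followed in LPS/IC-activated macrophages treated with a gamma-secretase inhibitor (GSI). The list holds 39 genes, taken by their symbol from the 47069 genes of the deposited count table, and all 39 were found and could be tested. Bone marrow cells of C57BL/6 mice aged 8 to 10 weeks had been grown for 7 days in L929-conditioned medium into bone marrow-derived macrophages (BMMs), primed overnight with IFNγ (10 ng/mL), and activated for 1 hr with LPS (100 ng/mL) and immune complexes of ovalbumin and rabbit IgG (ICs). The groups differed in receiving either DAPT (25 μM), a GSI through which Notch receptors stay uncleaved, or its vehicle, DMSO (0.01%). Each group had 2 replicates with 4 runs each, which were summed to 4 libraries. No library came from unprimed or unactivated cells, so the values describe the effect of GSI in activated macrophages alone. DAPT blocks gamma-secretase as a whole, which also cleaves membrane proteins other than Notch receptors. Nothing in the labels or methods says whether replicates came from separate mice or cultures, so the p-values measure the spread between these libraries, which may be technical.

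NRF2, encoded by Nfe2l2, is the transcription factor that switches on genes against oxidants. KEAP1 holds it in the cytosol for degradation until oxidants or electrophiles modify KEAP1, and BACH1 occupies the same DNA sites, the antioxidant response elements, and represses them until heme displaces it. The target genes make and recycle glutathione, feed electrons to thioredoxin and peroxiredoxins, break down heme and supply the NADPH on which both systems run. Macrophages need these genes because their oxidative burst and nitric oxide also strike the cell itself.

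Of the 39 genes, 21 were higher and 3 were lower with GSI at an FDR under 0.05, and the other 15 did not pass the test, so 24 were called in either direction. Among all genes tested 40.8% were called. The test was edgeR's quasi-likelihood test on counts, with Benjamini-Hochberg adjustment (FDR) over the 13211 genes that passed the filter on low counts. Over all these genes, 19.0% were higher and 21.9% were lower, against 53.8% and 7.69% of the 39. Most of the 39 were well expressed, and among the 7581 tested genes averaging at least 10 CPM (counts scaled to a common library size, with TMM adjustment) 22.6% were higher, against 19 of the 35 listed genes above that level. The median log2 fold change was 0.29 for the 39 genes and 0.01 for all genes tested. In 29 genes both GSI libraries lay above both DMSO libraries and in 4 both lay below, while such a separation held for 35.8% and 34.8% of all genes tested. A call with an absolute log2 fold change of at least 0.5 was made for 14 of the 39, against 17.5% of all genes tested. None of the 39 reached the study's threshold of an absolute log2 fold change above 1.5, which 2.91% of all genes passed together with the FDR threshold. These counts and medians are descriptions, with no test over the list.

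**Figure D1:**
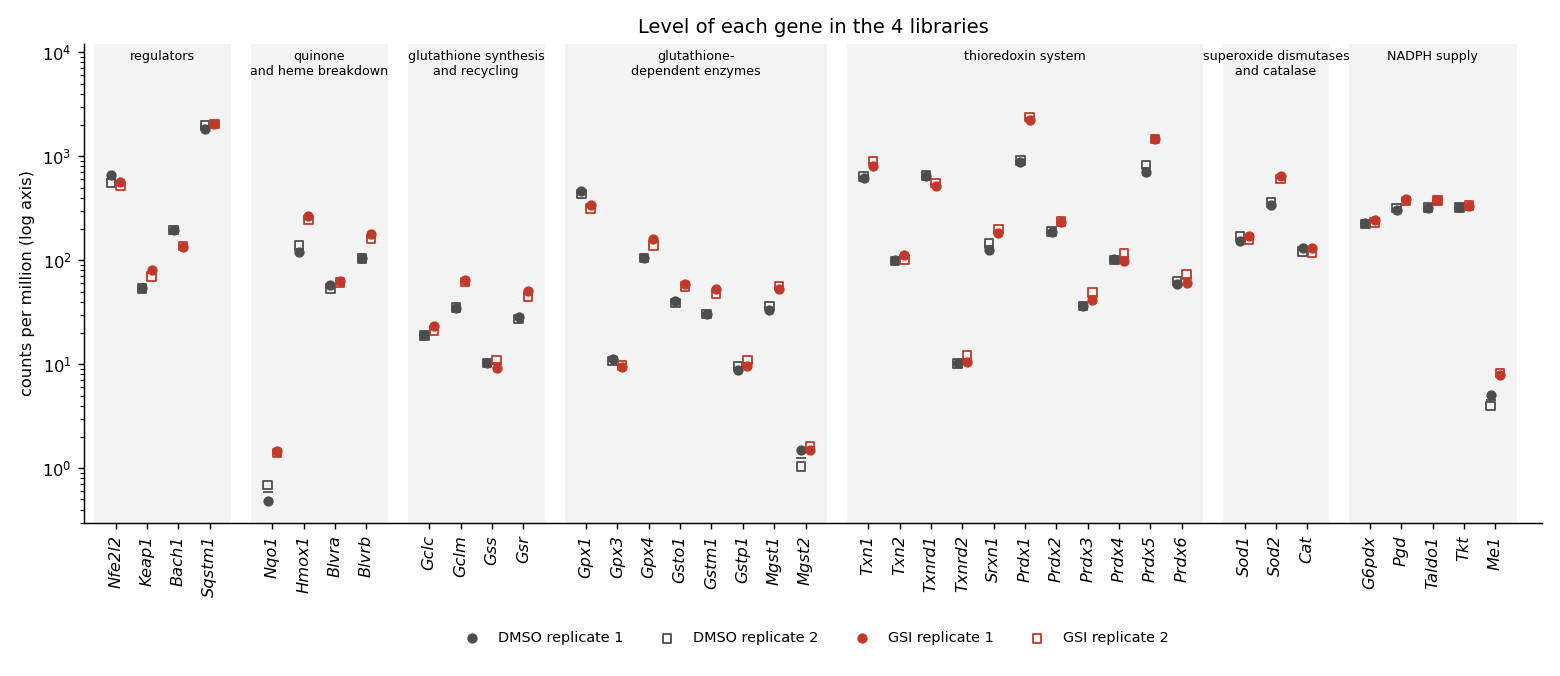
Level of each of the 39 genes in CPM on a log axis, grouped by role, with a filled circle for replicate 1, an open square for replicate 2 and a short line for the mean of 2 libraries. Prdx1, Prdx5, Hmox1, Gclm and Sod2 stand clearly higher in both GSI libraries (red) than in both DMSO libraries (grey), while Bach1, Gpx1 and Txnrd1 stand lower.

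**Figure D2:**
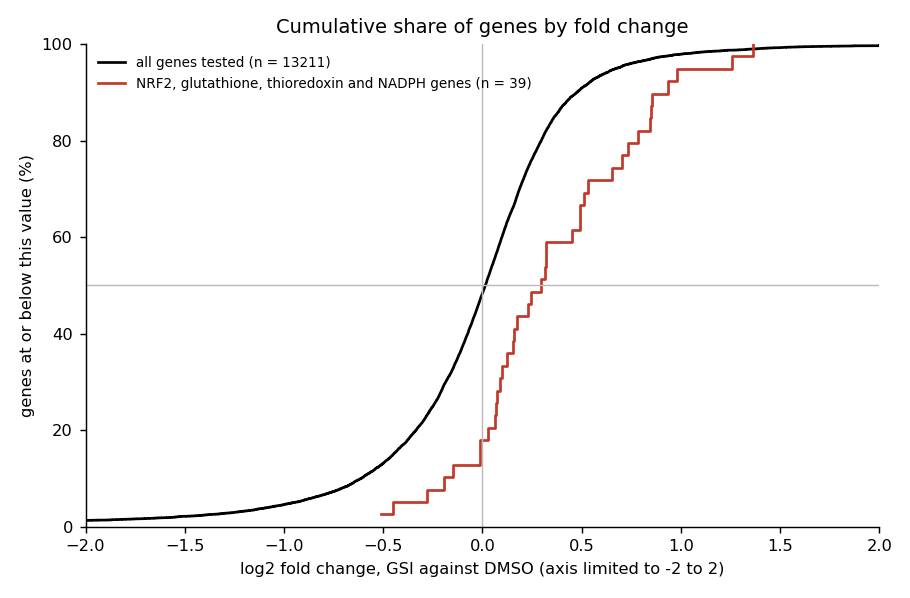
Cumulative share of genes by log2 fold change, for the 13211 genes tested (black) and the 39 listed genes (red). The red curve is shifted to the right, with medians of 0.29 against 0.01.

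The libraries held 42694655 to 56932059 counts, and 3 counts, taken as the upper limit for a gene with 0 counts, equalled 0.0529 to 0.0697 CPM depending on the library. This limit covers counting error only. The macrophage identity of the cells was checked with 8 marker genes (Csf1r, Adgre1, Cd68, Itgam, Fcgr1, Lyz2, Cd14 and Mertk), all of them present, whose summed level was 12279 and 12485 CPM with DMSO and 9489 and 10414 CPM with GSI. Of the 9 gene entries under these names, 7 were lower and 1 was higher at an FDR under 0.05, so macrophage markers moved opposite to most of the 39 genes. Markers of other cells were scarce: the neutrophil, B-cell, erythroid, mast cell and stromal lists each summed to at most 1.43 CPM in a library, and Elane, all 4 globin genes and Cpa3 had 0 counts throughout. Of the dendritic cell list, Clec9a and Xcr1 were the exceptions, and the list summed to 186 and 179 CPM with DMSO and 113 and 115 CPM with GSI. The T or NK cell list summed to 0.837 and 0.881 CPM with DMSO and 3.70 and 3.83 CPM with GSI, nearly all of it Cd247, with at most 2 counts for Cd3e, Cd3d or Cd3g in a library. Genes of cycling cells, 8 in all, were lower with GSI at an FDR under 0.05, from 472 to 266 CPM in sum. In these bulk samples, fewer cells of a kind and less RNA per cell cannot be told apart, and the part of these shifts in the results below was not tested.

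Antioxidant response element cores stood in the promoter windows of several of these genes. Of them 5 are printed below, from genes that moved in opposite directions. The letters common to all 5 cores are those fixed by the search. RefSeq promoter windows of GRCm38.p6, from 250 bases before to 50 bases after a gene's start, were found for 35 of the 39 genes. These 35 genes had 45 windows, since 7 of them have more than 1 annotated start. Gclc, Gsr, Hmox1 and Prdx6 had no entry. The core TGACNNNGC, where N is any base, was searched on both strands. It was present for 11 of the 35 genes (31.4%), against 14.0% of all 27025 gene symbols with a window, and by window 11 of 45 (24.4%) held it, against 12.4% of all windows. The variant core TGAGNNNGC was present for 6 of the 35 genes (17.1%), against 19.8% of all symbols, and of these 6 genes 4 were higher and 2 did not pass the test. The 5 TGACNNNGC cores printed are in capitals with 9 bases on each side, on the strand that reads the core 5′ to 3′.
Prdx1 (chr4:116685457-116685483, minus strand): tacgggggaTGACTCAGCgctttccct
Me1 (chr9:86695903-86695929, minus strand): atgccgccgTGACTCAGCgcttctcgc
Gclm (chr3:122245414-122245440, minus strand): cgtgagagtTGACGGTGCgcccgggag
Mgst1 (chr6:138140462-138140488, minus strand): cccgcctccTGACCGTGCcaagccccg
Txnrd1 (chr10:82859105-82859131, minus strand): gtgtcagaaTGACAAAGCaaaaatcca
In Prdx1 and Me1 the core read TGACTCAGC, a form that 0.503% of all symbols held and that contains the AP-1 site TGACTCA. The variant core read TGAGTCAGC in Srxn1, which was higher, and in Gstp1, which did not pass the test. Of the printed genes, the first 4 were higher with GSI and Txnrd1 was lower. The Txnrd1 core belongs to 1 of 3 annotated starts, one that lies inside the gene, downstream of the first. Those of Mgst1 and Me1 likewise belong to 1 of 2 annotated starts, and both cores lie inside the annotated span of their gene. Prdx1 and Gclm have 1 annotated start each. Of the 11 genes with a TGACNNNGC core, 6 were higher, 1 was lower and 4 did not pass the test. Of the 24 genes with a window but no such core in it, 12 were higher, 2 were lower and 10 did not pass. The medians were 0.29 and 0.28 on the log2 scale for genes with and without a core. A match describes letters only, and response elements further from the start, such as enhancers, lie outside the windows.

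**Figure D3:**
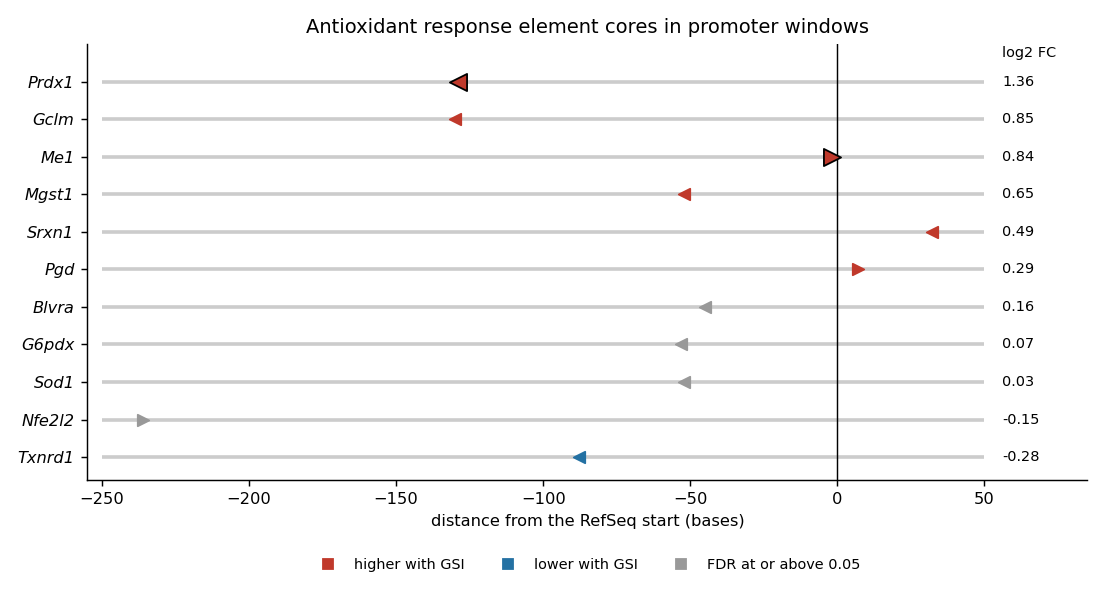
Position of the TGACNNNGC core in the promoter windows of the 11 genes that held one, in bases from the RefSeq start, ordered by log2 fold change (right). Arrowheads point along the strand that reads the core relative to the gene, and the outlined ones mark the form TGACTCAGC in Prdx1 and Me1.

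Among the regulators, the repressor gene Bach1 was lower and the inhibitor gene Keap1 was higher, while Nfe2l2 itself did not pass the test. Bach1 (ENSMUSG00000025612, chromosome 16, 87698945 to 87733346 of GRCm38) was measured at 195 and 194 CPM with DMSO and 135 and 138 CPM with GSI. Its GSI libraries lay well below its DMSO libraries, which differed by less than 1 CPM (log2 fold change -0.51, standard error 0.0682, FDR = 4.57e-06). Keap1 (ENSMUSG00000003308, chromosome 9, 21229730 to 21239361) stood at 53.8 and 53.4 CPM with DMSO and 80.6 and 70.0 CPM with GSI. It was thus higher in both GSI libraries, which differed more from each other than the DMSO libraries did (log2 fold change 0.49, standard error 0.0777, FDR = 3.76e-05). Nfe2l2 (ENSMUSG00000015839, chromosome 2, 75675513 to 75704641) was abundant, at 655 and 551 CPM with DMSO and 567 and 519 CPM with GSI, and here the groups overlapped, because GSI replicate 1 exceeded DMSO replicate 2 (log2 fold change -0.15, standard error 0.0836, FDR = 0.161). The value depended on single libraries: it was -0.27 (FDR = 0.0280) without DMSO replicate 2 and -0.21 (FDR = 0.0434) without GSI replicate 1, and it did not pass the test without DMSO replicate 1 or GSI replicate 2 (FDR = 0.908 and 0.481). Sqstm1, whose product p62 binds KEAP1 and delivers it to autophagy, stood at 1846 and 1975 CPM with DMSO and 2026 and 2033 CPM with GSI. Both GSI libraries were slightly above both DMSO libraries, but the difference did not pass the test (log2 fold change 0.09, FDR = 0.371). NRF2 is controlled mainly through protein stability, which these counts do not measure.

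The enzymes of heme and quinone breakdown were higher with GSI in 3 of 4 genes. Hmox1 (ENSMUSG00000005413, chromosome 8, 75093621 to 75100589) encodes heme oxygenase 1, which opens heme to biliverdin, iron and carbon monoxide, and is a target of both NRF2 and BACH1. Its level was 119 and 139 CPM with DMSO and 265 and 244 CPM with GSI. Both GSI libraries lay above both DMSO libraries, with a fitted fold of 1.97 between the groups (log2 fold change 0.98, standard error 0.0796, FDR = 6.21e-09). Blvrb, a reductase of biliverdin IXβ and flavins, followed with 105 and 104 CPM with DMSO and 179 and 161 CPM with GSI (log2 fold change 0.70, standard error 0.0730, FDR = 1.84e-07). By contrast Blvra, the main biliverdin reductase, stood at 57.4 and 53.6 CPM with DMSO and 62.8 and 61.3 CPM with GSI, and its separation of 0.16 on the log2 scale did not pass the test (FDR = 0.0830). Nqo1 (ENSMUSG00000003849, chromosome 8, 107388225 to 107403206), the quinone reductase often used as the readout of NRF2, was almost silent in these macrophages. It had 21 and 39 counts in DMSO replicates and 71 and 69 in GSI replicates, or 0.488 and 0.687 CPM with DMSO and 1.47 and 1.40 CPM with GSI. Both GSI libraries were higher than both DMSO libraries, with a fitted fold of 2.39 between the groups (log2 fold change 1.26, standard error 0.254, FDR = 0.000505), a value that rested on few reads and lay between 1.06 and 1.55 on leaving out single libraries.

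In glutathione synthesis, the modifier subunit and the reductase rose more than the catalytic subunit, and Gss, of the last step, did not pass the test. Gclm (ENSMUSG00000028124, chromosome 3, 122245557 to 122270732) encodes the modifier subunit of glutamate-cysteine ligase, the rate-limiting enzyme. It was measured at 35.1 and 34.9 CPM with DMSO and 64.9 and 61.5 CPM with GSI. The replicates lay close together in both groups and did not overlap (log2 fold change 0.85, standard error 0.0736, FDR = 1.38e-08). Gsr, the NADPH-dependent reductase that restores oxidized glutathione, rose in the same way, from 28.5 and 27.1 CPM with DMSO to 50.6 and 45.0 CPM with GSI (log2 fold change 0.78, standard error 0.0803, FDR = 1.56e-07). The catalytic subunit gene Gclc had 19.1 and 18.8 CPM with DMSO and 23.5 and 21.0 CPM with GSI, a small difference just past the threshold (log2 fold change 0.23, standard error 0.0863, FDR = 0.0405). That call was lost with DESeq2 (FDR = 0.119) and without DMSO replicate 1, DMSO replicate 2 or GSI replicate 1, where the log2 fold change was 0.24, 0.21 and 0.15. Gss, glutathione synthetase, stood at 10.2 and 10.3 CPM with DMSO and 9.29 and 11.0 CPM with GSI, with overlapping groups (log2 fold change -0.01, standard error 0.106, FDR = 0.941). It shares 1102 exon bases with genes on the other strand, of which Acss2 was higher (log2 fold change 0.56, FDR = 0.000140). Within each library the counts of Gclm per count of Gclc were 1.83 and 1.85 in the DMSO and 2.77 and 2.93 in the GSI libraries, so the shift between the subunits did not depend on the scaling of libraries.

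Among the glutathione-dependent enzymes, the glutathione peroxidases moved apart and several transferases rose. Gpx1 (ENSMUSG00000063856, chromosome 9, 108338903 to 108340343), the cytosolic peroxidase of hydrogen peroxide, was lower, with 459 and 432 CPM with DMSO and 337 and 315 CPM with GSI (log2 fold change -0.45, standard error 0.0724, FDR = 4.46e-05). Gpx4 (ENSMUSG00000075706, chromosome 10, 80047166 to 80056439), which reduces lipid peroxides in membranes and protects from ferroptosis, was higher, with 105 and 105 CPM with DMSO and 161 and 139 CPM with GSI (log2 fold change 0.51, standard error 0.0761, FDR = 1.71e-05). For each gene the DMSO and GSI libraries did not overlap, and the counts of Gpx4 per count of Gpx1 were 0.229 and 0.242 in the DMSO and 0.476 and 0.441 in the GSI libraries. Gpx3, a secreted peroxidase, stood at 11.2 and 10.8 CPM with DMSO and 9.41 and 9.76 CPM with GSI and was lower in both GSI libraries without passing the test (log2 fold change -0.20, FDR = 0.119).

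The glutathione transferase genes were higher in 3 of 5. Gstm1, of the mu class, stood at 30.1 and 30.5 CPM with DMSO and 52.9 and 48.0 CPM with GSI (log2 fold change 0.73, standard error 0.0771, FDR = 2.09e-07). Mgst1, a transferase of microsomal and mitochondrial outer membranes, has a core in 1 of its 2 promoter windows. It stood at 33.0 and 36.3 CPM with DMSO and 53.0 and 56.3 CPM with GSI (log2 fold change 0.65, standard error 0.0772, FDR = 9.81e-07). Gsto1, of the omega class, had 40.6 and 38.8 CPM with DMSO and 58.8 and 55.8 CPM with GSI (log2 fold change 0.53, standard error 0.0739, FDR = 8.22e-06). In all 3 genes both GSI libraries were above both DMSO libraries. Gstp1 and Mgst2 also lay higher in both GSI libraries, but their log2 fold changes of 0.17 and 0.32 did not pass the test (FDR = 0.201 and 0.262), and Mgst2 was measured on 59 to 80 counts. Gstp1 shares at least 95% identity over 200 or more bases with Gstp2 and Gstp-ps, which had 8 to 25 counts in sum, so its reads may be split among them.

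With all 4 libraries, the thioredoxin system held the largest change of the 39 genes, that of Prdx1 (ENSMUSG00000028691, chromosome 4, 116685544 to 116700822). Without DMSO replicate 2, the log2 fold change of Nqo1 was larger, at 1.55. Peroxiredoxins reduce peroxides at a cysteine that thioredoxin then restores, and Prdx1 encodes the most abundant cytosolic one. It was measured at 886 and 907 CPM with DMSO and 2214 and 2395 CPM with GSI. The fitted fold between the groups was 2.57, far beyond the difference between replicates (log2 fold change 1.36, standard error 0.0761, FDR = 3.80e-11), and no single library moved the log2 fold change outside 1.31 to 1.42. The near-identical copies Gm21399 and Gm7204 held 96 to 280 counts in sum per library, against 38113 to 118296 counts of Prdx1 itself. Prdx5 (ENSMUSG00000024953, chromosome 19, 6906697 to 6910106), a peroxiredoxin of mitochondria, peroxisomes and cytosol, was the next largest in this system, with 711 and 827 CPM with DMSO and 1473 and 1470.4 CPM with GSI (log2 fold change 0.94, standard error 0.0804, FDR = 1.29e-08). The GSI libraries were nearly equal, and the DMSO libraries differed by more than 100 CPM without reaching them. Prdx5 shares 409 exon bases with Trmt112 on the other strand, which had 1126 to 1478 counts and a log2 fold change of 0.16 (FDR = 0.125).

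The other peroxiredoxin genes had smaller fold changes. Prdx2 and Prdx3, the cytosolic partner of Prdx1 and the mitochondrial form, were higher by 0.32 and 0.32 on the log2 scale (FDR = 0.000915 and 0.00361). For Prdx3 this call rested on GSI replicate 2, without which the log2 fold change was 0.20 (FDR = 0.0832). Prdx4 of the endoplasmic reticulum and Prdx6, which uses glutathione in place of thioredoxin, had overlapping groups and log2 fold changes of 0.08 and 0.12 (FDR = 0.472 and 0.267). Without GSI replicate 1, Prdx6 passed the test with 0.26 (FDR = 0.0135). The counts of Prdx1 per count of Prdx2 were 4.75 and 4.79 in the DMSO and 9.56 and 10.1 in the GSI libraries. In sum, the 6 peroxiredoxin genes took 1983 and 2123 CPM with DMSO and 4119.5 and 4341 CPM with GSI. Prdx2 shares 350 exon bases with genes on the other strand, chiefly Junb, which had 66229 to 95570 counts and a log2 fold change of -0.14 (FDR = 0.154).

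Thioredoxin and its cytosolic reductase moved in opposite directions. Txn1, the small protein that passes electrons to peroxiredoxins, had 613 and 640.2 CPM with DMSO and 808 and 904 CPM with GSI (log2 fold change 0.45, standard error 0.0766, FDR = 8.50e-05). Txnrd1 (ENSMUSG00000020250, chromosome 10, 82833951 to 82897712), the NADPH-dependent selenoenzyme that recharges it, had 642 and 654 CPM with DMSO and 515 and 554 CPM with GSI (log2 fold change -0.28, standard error 0.0730, FDR = 0.00457). The groups did not overlap for either gene, and the counts of Txn1 per count of Txnrd1 were 0.955 and 0.979 in the DMSO and 1.57 and 1.63 in the GSI libraries. Srxn1, sulfiredoxin, which repairs peroxiredoxins after overoxidation and is a textbook NRF2 target like Txnrd1, was higher, with 127 and 145 CPM with DMSO and 183 and 199 CPM with GSI (log2 fold change 0.49, standard error 0.0772, FDR = 3.47e-05). The mitochondrial pair Txn2 and Txnrd2 did not pass the test, with log2 fold changes of 0.10 and 0.16 (FDR = 0.303 and 0.232).

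**Figure D4:**
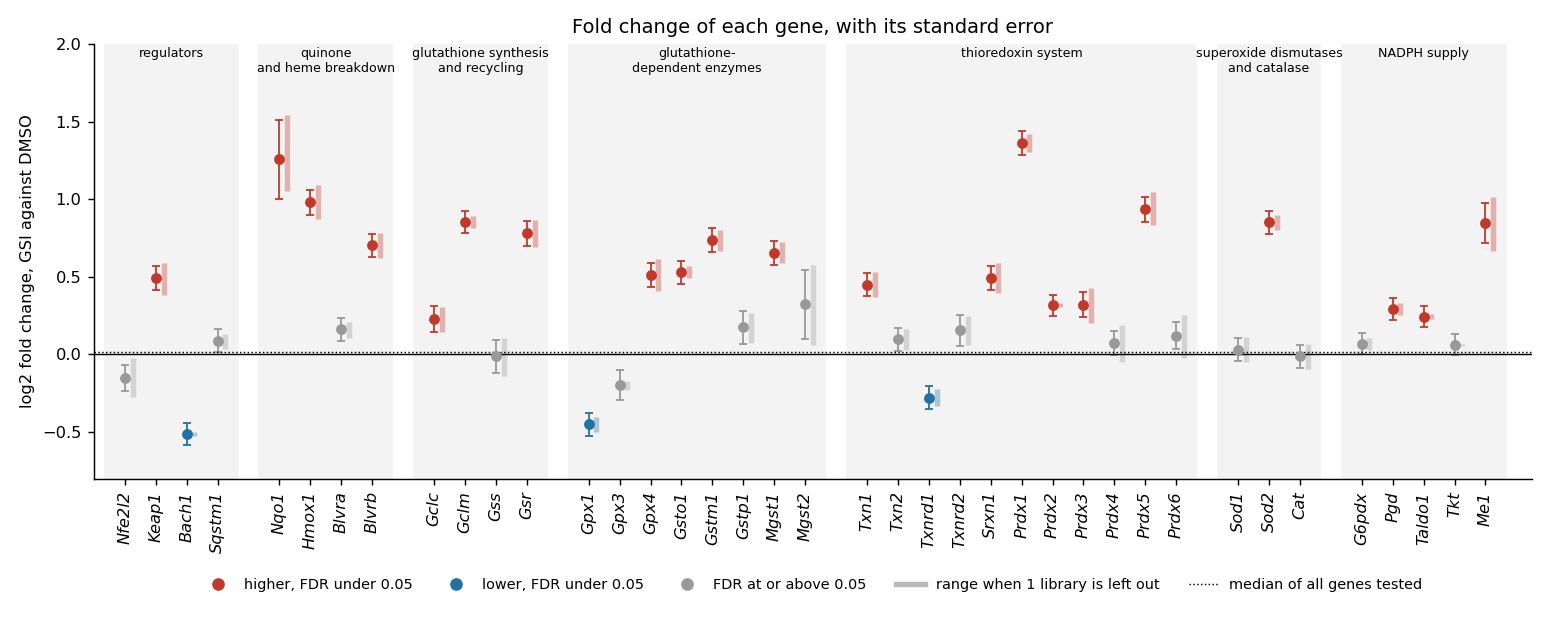
Log2 fold change of each of the 39 genes, GSI against DMSO, grouped by role, with bars for the standard error and pale bars for the span of values found on leaving out single libraries. The 21 red genes were higher and the 3 blue genes lower at an FDR under 0.05, and the dotted line is the median of all genes tested, 0.01.

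Of the superoxide dismutase genes Sod1 and Sod2 and the catalase gene Cat, only Sod2 passed the test. Sod2 (ENSMUSG00000006818, chromosome 17, 13006846 to 13040063), the manganese superoxide dismutase of mitochondria and a well-known NF-κB target, stood at 336 and 359 CPM with DMSO and 648 and 606 CPM with GSI. Its GSI libraries lay above its DMSO libraries, with a fitted fold of 1.80 (log2 fold change 0.85, standard error 0.0739, FDR = 1.50e-08). Sod1, the copper-zinc enzyme of the cytosol, had 152 and 169.7 CPM with DMSO and 171 and 157 CPM with GSI, and catalase (Cat) had 131 and 121 CPM with DMSO and 132 and 118 CPM with GSI. Both genes overlapped between groups, with log2 fold changes of 0.03 ± 0.0751 and -0.01 ± 0.0748 (standard error; FDR = 0.784 and 0.909). The counts of Sod2 per count of Sod1 were 2.21 and 2.12 in the DMSO and 3.79 and 3.86 in the GSI libraries.

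In NADPH supply, the first step of the pentose phosphate pathway did not pass the test, while Pgd and Taldo1 rose slightly and Me1 rose more. G6pdx, the committing glucose-6-phosphate dehydrogenase, had 227 and 224 CPM with DMSO and 243 and 230.4 CPM with GSI (log2 fold change 0.07, FDR = 0.449). Of its exon bases 418 are shared with Ikbkg on the other strand, which was higher by 0.35 on the log2 scale (FDR = 0.000781). Pgd, which yields the next NADPH, and Taldo1, transaldolase, were higher by 0.29 and 0.24 on the log2 scale (FDR = 0.00241 and 0.00800), and the call of Taldo1 was lost without DMSO replicate 1 (log2 fold change 0.23, FDR = 0.0660). Tkt, transketolase, stood at 322 and 320.5 CPM with DMSO and 335 and 335 CPM with GSI and did not pass the test (log2 fold change 0.06, FDR = 0.493). Me1 (ENSMUSG00000032418, chromosome 9, 86581371 to 86695953), the cytosolic malic enzyme that makes NADPH from malate, had the largest fold change of these genes. It had 218 and 226 counts in DMSO replicates and 380 and 408 in GSI replicates, or 5.07 and 3.98 CPM with DMSO and 7.86 and 8.26 CPM with GSI, with no overlap (log2 fold change 0.84, standard error 0.128, FDR = 2.16e-05). Like Prdx1 it holds the core TGACTCAGC printed above, at 1 of its 2 annotated starts.

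**Figure D5:**
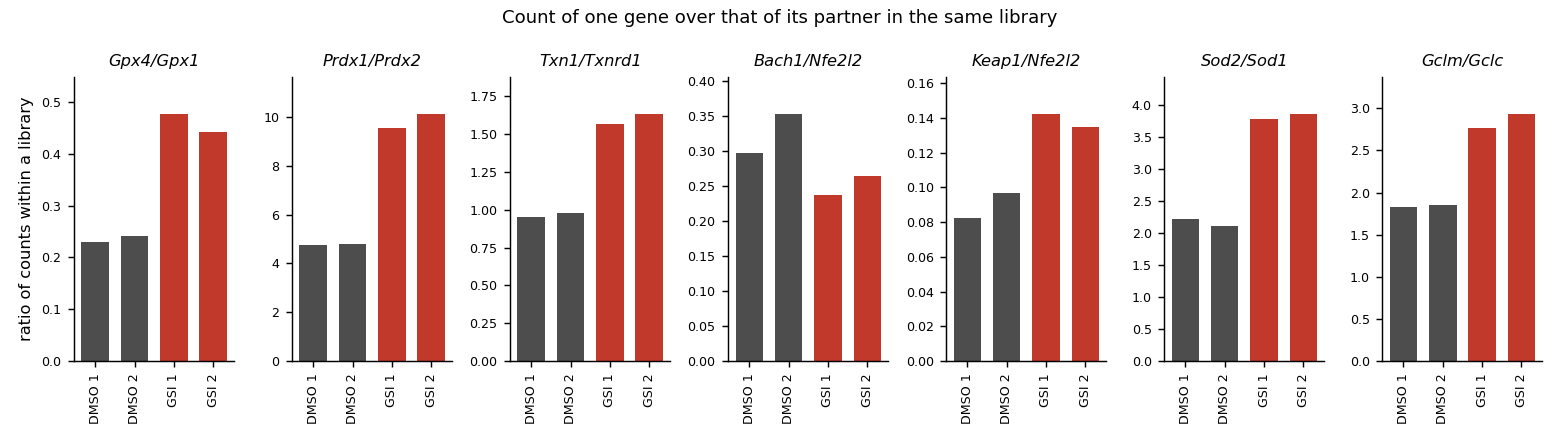
Counts of 1 gene divided by the counts of a partner gene in the same library, for 7 pairs chosen after their values were seen, so that library scaling has no part in the bars. Gpx4/Gpx1, Prdx1/Prdx2, Txn1/Txnrd1, Keap1/Nfe2l2, Sod2/Sod1 and Gclm/Gclc are higher in both GSI libraries (red) than in both DMSO libraries (grey), and Bach1/Nfe2l2 is lower.

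For the regulators the ratios within a library showed the same separation. The counts of Bach1 per count of Nfe2l2 were 0.297 and 0.353 in the DMSO and 0.238 and 0.265 in the GSI libraries, and those of Keap1 were 0.0821 and 0.0969 in the DMSO and 0.142 and 0.135 in the GSI libraries. The pairs were chosen after their values were seen, and no test was made of them.

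Levels were compared between genes only per length, as CPM per kb of annotated exon, with the SD of 2 libraries. Txn1 led the 39 genes, with 596 ± 18.5 with DMSO and 814 ± 64.3 with GSI, and lay first in both groups. Prdx1 moved from the fifth to the second place, with 295 ± 4.86 with DMSO and 757 ± 42.1 with GSI, and was followed by Prdx5 and Sqstm1, with 359.5 ± 38.2 with DMSO and 688 ± 0.855 with GSI and 569 ± 27.1 with DMSO and 605 ± 1.57 with GSI. Gpx1 went from the fourth to the fifth place, with 309 ± 13.1 with DMSO and 226 ± 10.8 with GSI. At the other end, Nqo1 had 0.378 ± 0.0907 with DMSO and 0.923 ± 0.0326 with GSI and Mgst2 0.341 ± 0.0855 with DMSO and 0.420 ± 0.0249 with GSI. Exon lengths were summed over all annotated transcripts, which lowers the value of genes with long unused exons. Reads of near-identical copies were few: those of Gpx4, Gstm1, Txn1, Prdx2, Sod1 and Me1 held at most 71 counts in a library. Keap1 and Gclm share exon bases with the antisense genes Gm16754 and Gm17494, which held at most 35 and 4 counts.

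A second list of 65 genes of the same processes was written for comparison, and 61 of them were tested. Of these 18 were higher and 9 were lower (FDR under 0.05), 29.5% and 14.8%, against 19.0% and 21.9% of all genes tested, and their median log2 fold change was 0.10. Among the genes that passed the test, the 5 largest increases were those of Chac1, Mthfd2, Aldh1l2, Esd and Akr1a1. Chac1, which degrades glutathione, stood at 1.30 and 1.80 CPM with DMSO and 7.55 and 6.76 CPM with GSI (log2 fold change 2.18, standard error 0.158, FDR = 1.24e-09). This fold change exceeded that of each of the 39 genes. Mthfd2 and Aldh1l2, mitochondrial folate enzymes, were higher by 0.93 and 0.88 on the log2 scale, and like Chac1 they are known targets of the stress factor ATF4 (FDR = 1.74e-09 and 0.00318). Without DMSO replicate 2, Aldh1l2 had 0.70 (FDR = 0.0538). Ddit3 and Trib3, 2 of a list of 6 stress genes, were higher by 1.19 and 2.09 on the log2 scale, whereas the chaperone gene Hspa5 had a log2 fold change of 0.00 (FDR = 7.36e-10, 2.24e-11 and 0.977). The other 3 of that list, the stress factor gene Atf3 and the heat shock genes Hspa1a and Hspa1b, were lower, with log2 fold changes of -0.19, -0.50 and -1.03 (FDR = 0.0398, 0.000333 and 5.85e-08). Esd, which releases formate and glutathione from S-formylglutathione, and Akr1a1, an NADPH-dependent aldehyde reductase, were higher by 0.83 and 0.63 (FDR = 1.09e-08 and 6.37e-07).

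The 5 largest decreases among the genes of the second list that passed the test were those of Ephx1, Sesn1, Glrx, Nnt and Abcc1. Ephx1, microsomal epoxide hydrolase and a known NRF2 target, fell from 33.1 and 31.2 CPM with DMSO to 11.5 and 12.9 CPM with GSI (log2 fold change -1.39, standard error 0.0886, FDR = 2.19e-10), with both GSI libraries below both DMSO libraries. Sesn1, a p53-regulated sestrin, and Glrx, the cytosolic glutaredoxin, had log2 fold changes of -0.75 and -0.60 (FDR = 2.39e-06 and 1.99e-06). Nnt, the mitochondrial transhydrogenase that makes NADPH, and Abcc1, an exporter of glutathione conjugates, followed with -0.38 and -0.33 (FDR = 0.00360 and 0.00101). Of the 7037 exon bases of Nnt, 3339 are shared with another gene entry of that name on the same strand. Its counts may therefore cover only part of the gene. Slc7a11, the cystine importer that is among the best known NRF2 and ATF4 targets, had overlapping groups, with 27.8 and 33.8 CPM with DMSO and 26.9 and 31.8 CPM with GSI (log2 fold change -0.07, FDR = 0.589). Nfe2l1 and Mafg, which encode a relative of NRF2 and its small MAF partner, were higher by 0.55 and 0.53 (FDR = 3.52e-06 and 4.89e-05). The other small MAF genes Mafk and Maff had log2 fold changes of 0.18 and -0.18 and did not pass the test (FDR = 0.0572 and 0.0709). Mafk passed it without GSI replicate 2 (0.23, FDR = 0.0264) and Maff without DMSO replicate 1 or GSI replicate 1 (-0.25 and -0.26, FDR = 0.0367 and 0.00934). Of the ubiquitin ligase subunits that act with KEAP1, Cul3 had -0.19 and Rbx1 0.51 on the log2 scale (FDR = 0.0369 and 8.60e-06), and the call of Cul3 was lost without any 1 of the 4 libraries (FDR = 0.0645 to 0.212). Slc7a11 and these 6 regulators were singled out after their values were seen.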

How the data were processed

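RNA-seq of 4 libraries, 2 with DMSO and 2 with GSI, was used. The authors prepared strand-specific libraries from mRNA (TruSeq), sequenced them on a NextSeq, trimmed adapters with Trimmomatic, aligned reads to mm10 with STAR (2.5.0a in the submitters' processing notes, which also list mm9) and deposited raw counts per gene and run from HTSeq. HTSeq's mode and strand setting are not given in the sources used here. The 16 columns were matched to samples by title. The 4 runs of a replicate were summed, since they differed by no more than sampling noise (chi-square per degree of freedom 1.01 to 1.03).

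Counts were tested with edgeR 4.0.16 (R 4.3.3): glmQLFit and glmQLFTest, filterByExpr, TMM, group as the only factor, Benjamini-Hochberg adjustment over 13211 genes. Standard errors are the log2 fold change over the square root of F. Positions and exon lengths came from GENCODE M21 (GRCm38), in which all 39 genes were found. Copies were sought with blastn (95% identity, 200 bases). The alternatives tried were RLE factors, the raw library totals, DESeq2 1.42.0, 2 other filters on low counts, the exact test, the replicate number as a block, and leaving out each library. The scripts were tested on simulated counts. By rule, genes described singly were the regulators Nfe2l2, Keap1 and Bach1, the targets Hmox1, Nqo1, Gclm, Srxn1 and Txnrd1, and every called gene whose log2 fold change was at least 0.5 in size; of the second list, the 5 called genes with the largest changes in each direction. The values per library of other genes were added after they were seen. Of the macrophage markers, 1 is not reported here. The genes and lists were chosen with earlier results of these data known. The time of GSI addition is given differently for different experiments, from overnight treatment to 30 min before activation.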

Additional observations from a re-analysis of the deposited data

How the results depend on the processing

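Of the 24 calls among the 39 genes, 21 held in all 11 alternatives, and none of the 24 changed direction in any of them. DESeq2 gave 20 higher and 3 lower genes of the 39, and RLE factors, no normalization factors, no filter, at least 10 counts in every library and the exact test each gave 21 and 3. The replicate numbers shared by the groups pair nothing that the labels name (over 13211 genes the replicate differences of the groups correlated with r = 0.155). With the replicate block, 22 of the 39 genes were higher and 3 lower, Blvra being added (FDR = 0.0373), Mafk and Maff of the second list passed too (FDR = 0.0203 and 0.0182), and over all genes 3314 were lower and 3130 higher, against 2888 and 2504 without it.

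When each library was left out in turn, the remaining library of that group was assumed to vary like the others. The genes of the 39 that were higher numbered 19 to 21 and those that were lower 3 to 4. The median log2 fold change of the 39 ranged from 0.247 to 0.270, against 0.293 with all libraries. The number past the study's fold threshold ranged from 0 to 1, the 1 being Nqo1 without DMSO replicate 2, with 1.55. Single genes were followed here only for the 39 and for the genes of the second list named above. Among these, the sign changed only in genes that had not passed the test. Log2 fold changes ranged from -0.0499 to 0.110 for Sod1, from -0.0475 to 0.189 for Prdx4 and from -0.0257 to 0.256 for Prdx6. They ranged from -0.0947 to 0.0668 for Cat, from -0.141 to 0.107 for Gss and from -0.201 to 0.0748 for Slc7a11. Without a filter on low counts, the call of Cul3 was lost (FDR = 0.0691). Aldh1l2 of the second list lost its call without DMSO replicate 2 (0.70, FDR = 0.0538). The cause of these dependences was not tested. Each SD comes from 2 libraries, and Nqo1 and Mgst2 rested on 21 to 80 counts a library.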
